A study of Mus musculus with 16 samples.

Results

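Knee joints of wildtype (WT) mice were profiled 7 days after injury (WT D7) and without injury (WT D0), and the 4 injured mice were compared with the 4 uninjured mice over all genes. These 8 libraries belong to a bulk RNA-seq experiment of 16 libraries, whose other 8 came from injured and uninjured Trem2-/- mice, knockout mice lacking a surface receptor of myeloid cells. The WT mice carried no engineered allele and the study names C57BL/6J males. The injury was a single compression of the tibia that tears the anterior cruciate ligament, given at 10 weeks of age, and the uninjured mice stood for day 0. The labels name cells of knee joints in one place. In another they describe homogenized whole joints of control and T1DM (diabetic) mice and a library kit other than the one the study names. They give an age of 16 weeks, and the conflict was not settled. The study describes cells released by collagenase with lysis of red cells. Whether the cells were enriched for CD45, the leukocyte surface protein, was not stated.

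A torn ligament leaves the joint unstable, and cartilage wear and osteoarthritis follow in this model. In joint repair as it is generally described, neutrophils and monocytes enter first and macrophages clear debris. Fibroblasts of the synovium, the membrane that lines the joint cavity, then lay down collagen and fibronectin, and at the joint margin precursor cells form cartilage that can later turn into bone. Precursors of neutrophils, B cells and red cells live in the bone marrow, which fills both bones of the knee. The study states that its isolation of joint cells was designed to keep out immune cells of the marrow, and refers to the same isolation for the bulk libraries. How much marrow RNA each of them held was not measured.

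Each library held between 14976054 and 32184431 reads on the listed genes. Values are CPM, read counts scaled to the size of each library, after edgeR's TMM correction, and 3 reads, the limit that a count of 0 allows, equalled 0.103 to 0.209 CPM. CPM do not correct for transcript length, so levels are compared between mice and not between genes. The 4 uninjured mice differed more among themselves than the injured mice, with a median SD per gene of 0.274 against 0.208 on the log2 scale. Among the uninjured mice, replicate 4 had the highest levels of many matrix genes and replicate 2 the lowest. Mki67, a marker of dividing cells, was 135, 604, 247 and 228 CPM in the WT D0 mice and 256, 199, 169.7 and 153 in the WT D7 mice, so that WT D0 replicate 2 stood highest. Counts were also made without each mouse in turn, and a count without a mouse is given where it moved by more than 1.5 times and by at least 2 members.

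Of 13173 genes compared with limma, 4933 were called at an unadjusted p under 0.05 and a fold change over 5/4, both limits being the study's, which is 37.4% of all genes tested. Of these, 2538 were higher (19.3% of the genes tested) and 2395 lower (18.2%) at D7. With Benjamini-Hochberg adjustment 3752 genes (28.5%) passed at 0.05, 2088 of them higher and 1664 lower, and the largest adjusted p of a called gene was 0.117. The mean was higher at D7 for 45.8% of the genes. The groups did not overlap for 2924 genes (22.2%), in the upward direction for 1694 (12.9%) and in the downward direction for 1230 (9.34%). Leaving out 1 mouse gave between 4023 and 5764 called genes, and between 1972, without WT D0 replicate 3, and 4792, without WT D0 replicate 1, after adjustment. When only the 8 WT libraries were fitted, 4395 genes (33.4%) were called and 1736 (13.2%) passed adjustment. Adjusted p of single genes are from the fit of all 16 libraries unless stated. The median log2 fold change over all genes was -0.04, and fold changes are given on the log2(CPM + 1) scale, which understates the change of genes with low values. TMM scaling is meant to offset a shift of reads toward abundant genes. It set the effective size of a library at 1.04 to 1.21 times its reads in WT D0 mice and at 0.855 to 0.959 times in WT D7 mice, and how completely it did so was not tested. Members of 61 gene lists are described against the shares of all genes. Some lists share members, with 834 entries for 798 different genes, so their counts are not independent. Markers of leukocytes (Ptprc), fibroblasts (Pdgfra), chondrocytes (Acan), osteoblasts (Ibsp), endothelium (Pecam1) and muscle (Acta1) were read in all 8 WT libraries.

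**Figure D1:**
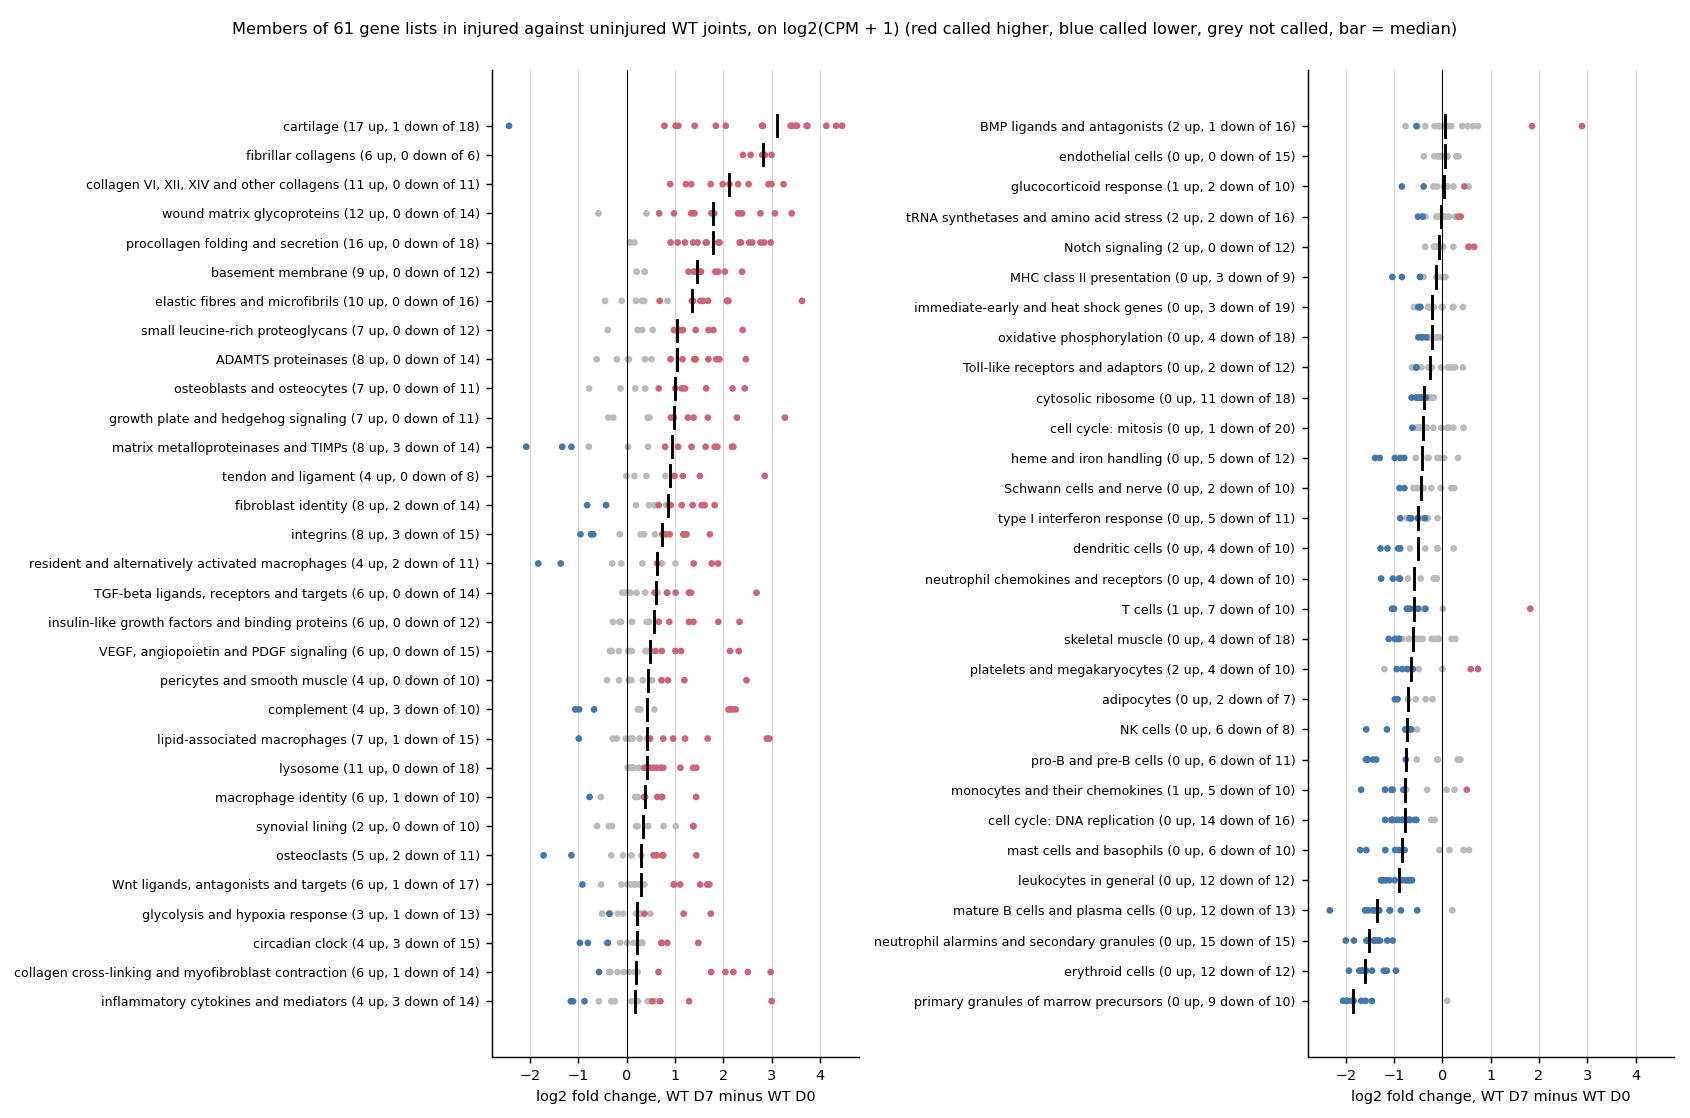
Each point is 1 gene of a list, placed by its log2 fold change between WT D7 and WT D0 on log2(CPM + 1), and lists are ordered by their median (black bar); red points were called higher, blue points called lower and grey points not called. Cartilage and collagen lists stand at the top, with medians of 3.10 and 2.83, and primary granule genes at the bottom, with a median of -1.84.

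The cartilage list had the highest median of the 61 lists, 3.10 on the log2 scale. Of 18 members 17 were called higher and 1 lower (16 and 1 after adjustment), and 16 or 17 were called higher with any 1 mouse left out. Col2a1 (chromosome 15, 97975602 to 98004695), the main fibrillar collagen of cartilage, was 1504, 198, 4754 and 7409 CPM in the WT D0 mice and 49324, 21052, 41789.7 and 56176 in the WT D7 mice. The lowest injured mouse stood above the highest uninjured one (log2 fold change 4.45, standard error 0.96, adjusted p = 0.0048 in the limma fit after Benjamini-Hochberg adjustment). Acan (chromosome 7, 79053483 to 79115099), the aggregating proteoglycan that holds water in cartilage, was 309.9, 52.0, 379 and 1245 CPM in the WT D0 mice and 5267, 2604, 3587 and 4992 in the WT D7 mice (log2 fold change 3.74, standard error 0.71, adjusted p = 0.00248 from limma). Matn3 (chromosome 12, 8947929 to 8972028), a matrix adaptor protein, was 15.8, 0.621, 60.4 and 108 CPM in the WT D0 mice and 634, 292, 339 and 470.3 in the WT D7 mice (log2 fold change 4.33, standard error 1.02, adjusted p = 0.00768 from limma). In both genes WT D0 replicate 2 was the lowest and WT D0 replicate 4 the highest uninjured mouse, still under every injured one.

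The minor cartilage collagens moved with Col2a1. Col9a1, Col9a2 and Col9a3, whose products decorate the collagen II fibril, had log2 fold changes of 4.13, 3.52 and 3.72, and Col11a1 and Col11a2, which sit inside the fibril, of 3.39 and 3.42. Their adjusted p ranged from 0.00135 for Col11a1 to 0.0192 for Col9a1 in the limma fit, and the injured mice stood above the uninjured ones for all 5 genes. In a limma fit of the WT libraries alone the adjusted p of Col9a1 was 0.05003. Hapln1, which links aggrecan to hyaluronan, rose from 157 ± 115 to 869 ± 285 CPM (SD, n = 4), and Lect1, which encodes chondromodulin, an inhibitor of vessel growth in cartilage, rose from 49.5 ± 45.5 to 308 ± 94.1 CPM. Sox9, the transcription factor of chondrocytes, was 71.2, 16.6, 51.1 and 128 CPM in the WT D0 mice and 227, 162, 204 and 327 in the WT D7 mice, again without overlap (log2 fold change 2.05, standard error 0.42, adjusted p = 0.00364 from limma). C1qtnf3 (chromosome 15, 10952332 to 10980150), a secreted protein made by growing cartilage, had the largest rise among the genes named here and was 24.4, 3.82, 13.6 and 659 CPM in the WT D0 mice and 1437, 1606, 1015 and 715 in the WT D7 mice. WT D0 replicate 4 alone stood near the injured mice (log2 fold change 5.11, standard error 0.99, adjusted p = 0.0027 from limma). The exception of the list was Cytl1, a small secreted protein of chondrocytes, which fell: it was 538, 152, 87.9 and 811 CPM in the WT D0 mice and 41.9, 18.9, 31.7 and 249 in the WT D7 mice, with overlapping groups (log2 fold change -2.44, standard error 0.76, adjusted p = 0.0279 from limma). Exons of Col9a3 and Col10a1 overlap those of Tcfl5 and Nt5dc1 on the opposite strand, as do those of Timp4 and Syn2, Csf1r and Hmgxb3, Loxl3 and Htra2, Mcm7 and Cops6, and Pth1r and Myl3. The strand setting of the counting was not stated, and without it reads of such pairs cannot be told apart.

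Genes of the growth plate, where cartilage matures toward bone, rose in 7 of 11 and fell in 0, with a median of 0.98. Col10a1 (chromosome 10, 34389981 to 34397085), the collagen of hypertrophic chondrocytes, was 135, 6.45, 347 and 289 CPM in the WT D0 mice and 1731, 614, 822 and 1011 in the WT D7 mice (log2 fold change 3.27, standard error 1.02, adjusted p = 0.0274 from limma). In a limma fit of the WT libraries alone its adjusted p was 0.0679. Pth1r, the receptor for parathyroid hormone and its related protein, rose from 29.0 ± 17.1 to 124 ± 33.1 CPM (SD, n = 4). Among osteoblast and osteocyte genes 7 of 11 were called higher and 0 lower. The list shares Pdgfra with the fibroblast list and Spp1 with the list of lipid-associated macrophages. Its members Bglap, Mepe and Sost were not among the genes tested. Ibsp, the bone sialoprotein of mineralizing matrix, was 301, 68.2, 173 and 683 CPM in the WT D0 mice and 1181, 712, 1279 and 1997 in the WT D7 mice (log2 fold change 2.44, standard error 0.59, adjusted p = 0.00874 from limma). Sp7, the transcription factor of osteoblast commitment, and Dmp1, a protein of osteocytes, had log2 fold changes of 1.64 and 2.19. Bglap2, an osteocalcin gene of mature osteoblasts, was not called and was 29.2, 12.3, 25.6 and 50.6 CPM in the WT D0 mice and 10.6, 7.08, 8.93 and 67.3 in the WT D7 mice, so that WT D7 replicate 4 stood far above the other injured mice. Among 11 osteoclast genes 5 were called higher and 2 lower. Ctsk, the collagen-cleaving cathepsin of osteoclasts and of fibroblasts, rose (log2 fold change 1.44, standard error 0.39, adjusted p = 0.0147 from limma), while the acid phosphatase Acp5 was 31.9 ± 5.12 CPM at D0 and 40.6 ± 12.01 CPM at D7 (SD, n = 4) and was not called.

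**Figure D2:**
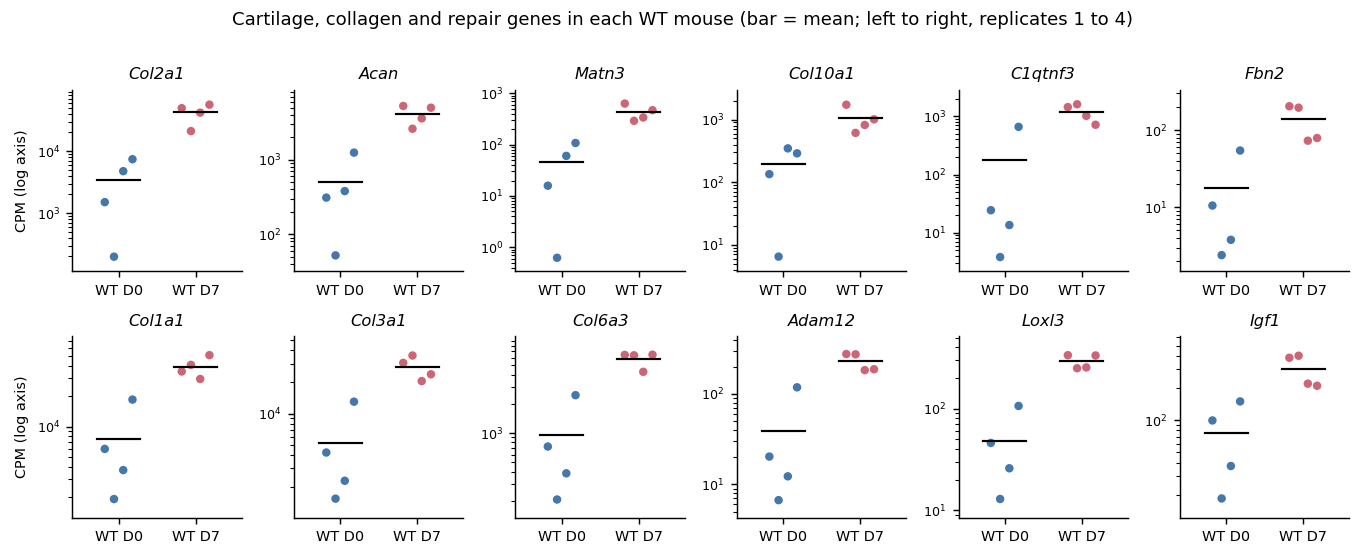
Values of 12 genes in CPM on a log axis in each WT mouse, D0 in blue and D7 in red, with the mean as a bar and replicates 1 to 4 from left to right within a group. The injured mice lay above all uninjured mice for each of the 12 genes, and WT D0 replicate 2 was the lowest uninjured mouse for all of them.

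The collagens of fibrous tissue rose together. All 6 fibrillar collagen genes on the list were called higher after adjustment (median log2 fold change 2.83) and all 11 of the other collagens were called higher (median 2.12). All 6 fibrillar collagens were called with any 1 mouse left out. Col1a1 (chromosome 11, 94936224 to 94953042), the chain that forms most of the collagen of bone, ligament and scar, was 6018, 1918, 3714 and 18523 CPM in the WT D0 mice and 35151, 40889, 29618 and 51035 in the WT D7 mice (log2 fold change 2.85, standard error 0.57, adjusted p = 0.00333 from limma). Col3a1, the collagen of young scar and vessel walls, was 4247, 1539.8, 2282 and 12978 CPM in the WT D0 mice and 30465, 35789.5, 20413 and 23697 in the WT D7 mice (log2 fold change 2.85, standard error 0.56, adjusted p = 0.00303 from limma). No injured mouse came down to the level of WT D0 replicate 4, the highest uninjured one. Col5a1, which starts the fibril, and Col6a3, a chain of the beaded filaments around cells, had log2 fold changes of 2.99 and 3.24.

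Counted over every gene whose symbol marks a collagen chain, a set drawn up after values were seen, 30 of 43 genes tested were called higher and 0 lower. The 44 listed collagen genes took a share of the reads of 3.01, 1.05, 2.42 and 7.86% in the WT D0 mice and 18.9, 15.9, 14.2 and 19.0% in the WT D7 mice. Every injured library gave collagen genes more reads than any uninjured one, a rise of the mean from 3.58 ± 2.96% to 17.0 ± 2.36% (SD, n = 4, two-sided exact permutation test, p = 0.0286, the smallest that 4 mice against 4 allow). A 95% Wilson interval of such a share was at most 0.0198 percentage points to either side and covers counting error only. Collagen transcripts are long, and long transcripts collect more reads. Shares were taken from reads without the TMM correction, so a larger share for 1 family leaves less for the others.

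**Figure D3:**
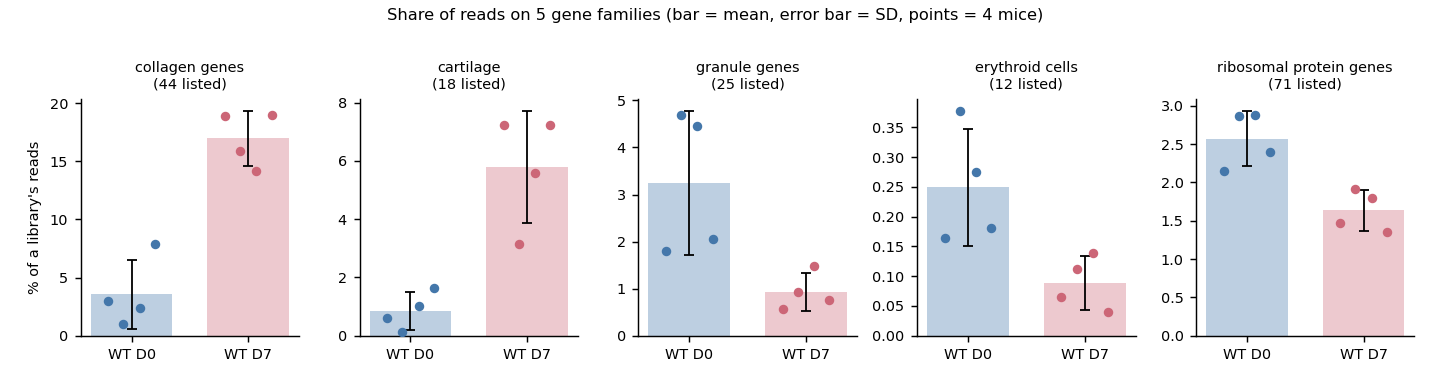
Percentage of each library's reads, without the TMM correction, on 5 gene families in WT D0 (blue) and WT D7 (red) mice, with points for the 4 mice, bars for the mean and error bars for the SD. Collagen and cartilage genes took larger shares at D7, means of 17.0% and 5.79%, and granule, erythroid and ribosomal protein genes smaller ones, means of 0.930%, 0.0892% and 1.63%.

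The enzymes that finish collagen rose with the chains. Of 18 genes of procollagen folding and secretion 16 were called higher and 0 lower, and the count was 16 with any 1 of the 8 mice left out. P4ha3, a prolyl hydroxylase that stabilizes the triple helix, rose from 15.2 ± 19.0 to 83.8 ± 29.4 CPM (SD, n = 4). Plod2, the lysyl hydroxylase that prepares stable cross-links, was 141, 28.5, 81.0 and 329 CPM in the WT D0 mice and 824, 705, 659.8 and 779 in the WT D7 mice (log2 fold change 2.84, standard error 0.47, adjusted p = 0.00123 from limma). Serpinh1, the collagen chaperone of the endoplasmic reticulum, had a log2 fold change of 1.92. Hspa5, the general chaperone of that compartment, was 1703 ± 155 CPM at D0 and 1782 ± 77.6 CPM at D7 (SD, n = 4) and was not called. All 5 measured genes of the lysyl oxidase family, which cross-link collagen and elastin, were called higher, with the largest log2 fold change in Loxl3 and one of 2.04 in Lox. Loxl3 was 46.0, 12.9, 25.9 and 106 CPM in the WT D0 mice and 336, 249.8, 255 and 334 in the WT D7 mice (log2 fold change 2.98, standard error 0.41, adjusted p = 0.000572 from limma). Of the 9 contractile genes on the same list, 1 was called higher and 1 lower. Acta2, the actin of smooth muscle and myofibroblasts, was 582, 354, 476 and 336 CPM in the WT D0 mice and 512, 429, 444 and 382 in the WT D7 mice, with overlapping groups.

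Glycoproteins of the wound matrix rose in 12 of 14 and fell in 0. Fn1, fibronectin, was 8233, 4106, 3189 and 10771 CPM in the WT D0 mice and 28355, 28155, 29218 and 34415 in the WT D7 mice (log2 fold change 2.36, standard error 0.44, adjusted p = 0.00221 from limma). It was no longer called after quantile normalization. Tnc and Tnn, tenascins that are sparse in resting adult tissue, had log2 fold changes of 2.76 and 3.06. Postn, periostin, was 743, 213, 519.7 and 3057 CPM in the WT D0 mice and 4245, 5109, 2519.6 and 2724 in the WT D7 mice, and here WT D0 replicate 4 lay within the injured range (log2 fold change 2.30, standard error 0.56, adjusted p = 0.00858 from limma). Cthrc1, a secreted protein of matrix-forming fibroblasts, was 15.9, 3.78, 9.41 and 119.6 CPM in the WT D0 mice and 241, 360.3, 109.8 and 133 in the WT D7 mice and overlapped through the same mouse (log2 fold change 3.41, standard error 0.70, adjusted p = 0.00369 from limma). Thbs1, a thrombospondin released early in wounds, was 7522 ± 1186 CPM at D0 and 5333 ± 2278 CPM at D7 (SD, n = 4) and was not called. Among 16 genes of elastic fibres 10 were called higher and 0 lower. Fbn2, the fibrillin of developing tissue, was 10.5, 2.39, 3.77 and 54.4 CPM in the WT D0 mice and 204, 196, 73.0 and 79.1 in the WT D7 mice (log2 fold change 3.63, standard error 0.65, adjusted p = 0.00173 from limma), and Eln, elastin, had a log2 fold change of 1.57.

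Basement membrane genes rose in 9 of 12 and fell in 0, led by Nid2, a nidogen (2.39 in log2 fold change), and Sparc, a collagen-binding glycoprotein (1.89). Of 12 small leucine-rich proteoglycans, which space collagen fibrils, 7 were called higher and 0 lower. Bgn, biglycan, was 1246, 343, 590.5 and 2369 CPM in the WT D0 mice and 4583, 4632, 4048 and 5365 in the WT D7 mice (log2 fold change 2.40, standard error 0.43, adjusted p = 0.00174 from limma). Dcn, decorin, a related protein of resting connective tissue, was 2667 ± 1469.5 CPM at D0 and 2764 ± 821 CPM at D7 (SD, n = 4) and was not called. Among integrins, 8 of 15 were called higher and 3 lower (1 leaving out WT D0 replicate 2). The fibronectin receptor chain Itga5 rose from 329 ± 144 to 688 ± 44.9 CPM (SD, n = 4), and Itgb5 and the collagen receptor Itga11 had log2 fold changes of 1.203 and 1.72. The leukocyte integrin Itgal fell from 183 ± 64.4 to 93.0 ± 32.9 CPM (SD, n = 4).

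Proteinases and their inhibitors moved in both directions. Of 14 matrix metalloproteinases and inhibitors 8 were called higher and 3 lower. Mmp14, the membrane-bound collagenase, was 202, 78.6, 127 and 562 CPM in the WT D0 mice and 932, 1109.9, 574 and 821 in the WT D7 mice (log2 fold change 2.18, standard error 0.44, adjusted p = 0.00356 from limma), and Mmp2, the gelatinase it activates, had a log2 fold change of 1.87. Timp1, an inhibitor of several matrix metalloproteinases, rose without overlap (log2 fold change 2.21, standard error 0.49, adjusted p = 0.00537 from limma). Timp4 (chromosome 6, 115241892 to 115252205), an inhibitor with a narrow tissue range, fell and was 98.3, 44.8, 94.7 and 36.8 CPM in the WT D0 mice and 17.3, 11.1, 12.5 and 16.3 in the WT D7 mice (log2 fold change -2.08, standard error 0.38, adjusted p = 0.00189 from limma). Mmp9, the gelatinase of neutrophils, fell from 713 ± 272 to 326 ± 142 CPM (SD, n = 4). Mmp13, the collagenase of hypertrophic cartilage and osteoarthritis, was 317, 165, 237 and 1059 CPM in the WT D0 mice and 162, 134, 68.3 and 986 in the WT D7 mice. In both groups replicate 4 stood far above the rest, and the gene was not called. Mmp3, stromelysin, was 60.1 ± 50.3 CPM at D0 and 68.5 ± 56.5 CPM at D7 (SD, n = 4) and was not called. Of 14 ADAMTS and procollagen proteinases 8 were called higher and 0 lower (2 lower leaving out WT D0 replicate 2), the former including Adamts12 (2.46 in log2 fold change) and Bmp1, which cuts the ends off procollagen (1.85). The aggrecanase Adamts5 was 44.5 ± 25.3 CPM at D0 and 57.6 ± 16.2 CPM at D7 (SD, n = 4) and was not called. Adam12, a membrane proteinase of activated mesenchymal cells, was 20.3, 6.69, 12.3 and 119 CPM in the WT D0 mice and 277, 275, 184 and 188 in the WT D7 mice (log2 fold change 3.33, standard error 0.57, adjusted p = 0.00139 from limma).

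Fibroblast markers rose in 8 of 14 and fell in 2. Fap, a surface proteinase of activated fibroblasts, was 83.1, 16.0, 39.0 and 109 CPM in the WT D0 mice and 137, 150.0, 144 and 181 in the WT D7 mice (log2 fold change 1.61, standard error 0.44, adjusted p = 0.0156 from limma). Dpt, dermatopontin, and Pdgfra, a PDGF receptor, had log2 fold changes of 1.55 and 1.14. Thy1, a surface protein of fibroblasts below the lining and of T cells, was 54.0, 22.8, 36.8 and 83.3 CPM in the WT D0 mice and 189, 166, 145 and 138 in the WT D7 mice, higher in every injured mouse. Dpp4, a marker of fibroblasts in the outer tissue layers, fell from 25.4 ± 4.30 to 13.99 ± 2.66 CPM (SD, n = 4). Of 10 genes of the synovial lining 2 were called higher, the hyaluronan synthase Has2 (1.38) and the serine proteinase Htra1 (1.38), and 0 lower. The 2 called higher were near the share of all genes tested, 19.3%. Prg4, the joint lubricant, was 6852, 5386, 1039 and 6244 CPM in the WT D0 mice and 4275, 9604, 10944 and 8853 in the WT D7 mice. It was not called, and WT D0 replicate 3 stood far below every other mouse. Fam180a was among the 15 largest rises (3.30 in log2 fold change).

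Tendon and ligament genes were called higher in 4 of 8 (2 leaving out WT D0 replicate 2 or WT D7 replicate 4 and in a fit of the WT libraries alone). Scx, the transcription factor of tendon cells, was 7.23, 2.34, 4.31 and 11.4 CPM in the WT D0 mice and 15.5, 33.2, 13.8 and 13.4 in the WT D7 mice (log2 fold change 1.51, standard error 0.35, adjusted p = 0.0073 from limma). Tnmd, tenomodulin of mature tendon, was 104, 15.7, 78.5 and 111 CPM in the WT D0 mice and 65.7, 176, 80.9 and 146 in the WT D7 mice. The groups overlapped and it was not called.

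Some genes of several growth factor families rose. Of all genes tested 19.3% were called higher and 18.2% lower. Igf1 (chromosome 10, 87858265 to 87937042), insulin-like growth factor 1, was 99.3, 18.4, 37.2 and 149.8 CPM in the WT D0 mice and 384, 401, 219.7 and 209.9 in the WT D7 mice (log2 fold change 2.33, standard error 0.52, adjusted p = 0.0057 from limma). Pappa, the proteinase that frees IGF from its binding proteins, had a log2 fold change of 1.89, and the receptor gene Igf1r was 145 ± 14.98 CPM at D0 and 119.8 ± 21.9 CPM at D7 (SD, n = 4) and was not called. In all, 6 of 12 genes of the IGF system were called higher and 0 lower. In the TGF-beta list 6 of 14 were called higher (10 leaving out WT D0 replicate 1) and 0 lower. Inhba, which encodes activin A, was 46.2, 20.8, 20.1 and 139 CPM in the WT D0 mice and 205, 189, 373 and 356 in the WT D7 mice (log2 fold change 2.68, standard error 0.46, adjusted p = 0.00144 from limma), and Tgfbi, a target of TGF-beta, had a log2 fold change of 1.33. Tgfb1 was 213 ± 22.9 CPM at D0 and 217 ± 18.1 CPM at D7 (SD, n = 4) and was not called. Of 16 genes for BMP ligands and antagonists 2 were called higher (4 leaving out WT D0 replicate 1) and 1 lower. The 2 called higher were a smaller share than that of all genes, and the median log2 fold change was 0.06. Gdf5, the ligand that marks joint-forming cells, was 1.97, 0.574, 0.159 and 4.68 CPM in the WT D0 mice and 17.8, 11.7, 14.96 and 23.3 in the WT D7 mice (log2 fold change 2.89, standard error 0.40, adjusted p = 0.000624 from limma). In WT D0 replicate 3 that was 3 reads.

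Of 17 Wnt ligands, antagonists and targets 6 were called higher and 1 lower, against 19.3% and 18.2% of all genes tested. The antagonists Frzb and Dkk3 rose (1.67 and 1.71 in log2 fold change), as did the ligand Wnt5a (0.97), and the antagonist Sfrp5 fell (-0.92, adjusted p = 0.0987 in the limma fit), a call that was lost in 8 of 20 alternative settings. Of 15 genes of VEGF, angiopoietin and PDGF signaling 6 were called higher and 0 lower. Angptl2, a secreted angiopoietin-like protein, was 123, 43.9, 82.7 and 355 CPM in the WT D0 mice and 619.6, 760.1, 413 and 525 in the WT D7 mice (log2 fold change 2.32, standard error 0.44, adjusted p = 0.00252 from limma), and the ligand Pdgfc had a log2 fold change of 2.14. Notch genes were called higher in 2 of 12, Jag1 and Heyl, and lower in 0, and leaving out WT D0 replicate 2 both calls were lost. The Notch count was near the 19.3% of all genes tested.

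Of 15 endothelial genes 0 were called by limma and 0 by edgeR at an unadjusted p under 0.05 and the fold limit (2 higher by limma without WT D0 replicate 1), and their median log2 fold change was 0.05. Pecam1, the adhesion protein of vessel walls, was 1045, 407, 642 and 491 CPM in the WT D0 mice and 525, 682, 829 and 586 in the WT D7 mice, and Cdh5 was 494 ± 230.1 CPM at D0 and 503 ± 109 CPM at D7 (SD, n = 4). Pericyte and smooth muscle genes were called higher in 4 of 10 (2 leaving out WT D0 replicate 2 or WT D7 replicate 1). Cspg4, a proteoglycan of pericytes and of cartilage, was 123, 48.6, 95.3 and 226 CPM in the WT D0 mice and 652, 458, 562 and 764 in the WT D7 mice (log2 fold change 2.48, standard error 0.36, adjusted p = 0.000722 from limma). Skeletal muscle genes were called lower in 4 of 18 (1 leaving out WT D0 replicate 1, WT D0 replicate 3, WT D7 replicate 2 or WT D7 replicate 3, 7 leaving out WT D7 replicate 1 and 8 leaving out WT D0 replicate 4 or WT D7 replicate 4). Acta1, the actin of skeletal muscle, was 199 ± 109 CPM at D0 and 94.8 ± 38.9 CPM at D7 (SD, n = 4), and Mylpf, a light chain of fast muscle, fell with a log2 fold change of -1.11. Adipocyte genes were called lower in 2 of 7 (4 leaving out WT D0 replicate 4), among them Adipoq, adiponectin (-0.93). Schwann cell genes were called lower in 2 of 10, among them the myelin gene Mbp (-0.89). The Schwann cell count was 4 leaving out WT D0 replicate 2 or WT D0 replicate 4 and in a fit of the WT libraries alone. With all mice, the muscle and Schwann cell counts were near the 18.2% of all genes tested that were called lower. The fall of Myoc, which encodes the secreted glycoprotein myocilin, was the largest among the genes named here, and it was 256, 69.6, 215 and 195 CPM in the WT D0 mice and 20.3, 17.7, 21.1 and 68.3 in the WT D7 mice. WT D7 replicate 4 stood above the other injured mice and just under the lowest uninjured one (log2 fold change -2.58, standard error 0.50, adjusted p = 0.00287 from limma).

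Many of the largest falls were in genes of marrow cells. Neutrophils store their weapons in primary granules, made first in the marrow, and in secondary granules, made later. The promoters of 3 primary granule genes that fell are shown because they share one short word, AGGAAGT, a form of the binding site of PU.1, the transcription factor of myeloid cells. Each stretch is the 160 bases before the RefSeq transcription start on GRCm38.p6, written 5′ to 3′ on the strand of the gene, with the word in capitals: Elane at chr10:79886152-79886311 (plus strand), Prtn3 at chr10:79879507-79879666 (plus strand) and Fcnb at chr2:28084879-28085038 (minus strand).
Elane: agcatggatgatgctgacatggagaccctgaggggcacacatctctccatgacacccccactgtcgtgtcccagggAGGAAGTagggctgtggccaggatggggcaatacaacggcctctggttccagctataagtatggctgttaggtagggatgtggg
Prtn3: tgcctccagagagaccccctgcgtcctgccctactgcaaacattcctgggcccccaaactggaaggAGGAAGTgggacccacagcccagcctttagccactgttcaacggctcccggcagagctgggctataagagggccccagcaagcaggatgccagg
Fcnb: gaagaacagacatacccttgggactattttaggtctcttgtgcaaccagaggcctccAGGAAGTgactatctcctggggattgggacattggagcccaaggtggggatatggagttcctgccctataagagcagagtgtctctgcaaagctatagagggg
Searched on both strands in the 250 bases before the start, the word occurred in 6 of 8 primary granule genes with a RefSeq promoter (Mpo, Elane, Prtn3, Ctsg, Fcnb and Rgcc) and in 8.66% of the 10095 tested genes with one. Among 13 secondary granule and alarmin genes it occurred in 4. It was also present in lists with members that rose, in 5 of 9 resident macrophage genes (Mrc1 and Folr2 among them) and in 3 of 6 complement genes (C1qb and C1qc among them), and in 5 of 8 T cell genes. It was the site of 1 of 11 factors searched after the values were seen, and a match is a description and not a binding site.

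Of 10 primary granule genes 9 were called lower and 0 higher, with a median log2 fold change of -1.84, and the count was 9 with any 1 of the 8 mice left out. Elane (chromosome 10, 79886247 to 79888215), neutrophil elastase, was 89.4, 382, 286 and 193 CPM in the WT D0 mice and 57.5, 85.7, 46.7 and 31.1 in the WT D7 mice (log2 fold change -1.99, standard error 0.49, adjusted p = 0.0098 from limma). Mpo (chromosome 11, 87793581 to 87804413), myeloperoxidase, was 399.5, 1656, 1386 and 827 CPM in the WT D0 mice and 319, 358, 253 and 159 in the WT D7 mice (log2 fold change -1.84, standard error 0.47, adjusted p = 0.0109 from limma). WT D0 replicate 1 was the lowest uninjured mouse for both genes and stood just above the injured ones. Prtn3, Ctsg, Fcnb and Ms4a3, a proteinase, a cathepsin, a lectin and a membrane protein of granulocyte precursors, had log2 fold changes of -1.96, -1.85, -1.86 and -2.05, without overlap. Rgcc, a cell cycle regulator, was the member that was not called.

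All 15 tested genes of neutrophil alarmins and secondary granules were called lower after adjustment (median -1.52), and 15 were called with any 1 mouse left out. Camp (chromosome 9, 109847379 to 109849617), the precursor of an antimicrobial peptide, was 431, 1132, 1168 and 623 CPM in the WT D0 mice and 132, 279, 263 and 142 in the WT D7 mice (log2 fold change -1.998, standard error 0.48, adjusted p = 0.00862 from limma). Ngp, a granule protein of maturing neutrophils, was 2854, 8353, 7488 and 3954 CPM in the WT D0 mice and 1150.3, 2022, 2649 and 1608 in the WT D7 mice (log2 fold change -1.54, standard error 0.46, adjusted p = 0.0224 from limma). Ltf, lactoferrin, had a log2 fold change of -1.56. S100a8, an alarmin of mature neutrophils and monocytes, was 2730.4, 4668, 5844 and 2559 CPM in the WT D0 mice and 690.0, 1209, 2727 and 1251 in the WT D7 mice, and WT D7 replicate 3 lay above the lowest uninjured mouse (log2 fold change -1.52, standard error 0.43, adjusted p = 0.0174 from limma), while its partner S100a9 had a log2 fold change of -1.42. The 25 granule genes together took a share of the reads of 1.80, 4.68, 4.45 and 2.06% in the WT D0 mice and 0.567, 0.923, 1.48 and 0.750% in the WT D7 mice. The eosinophil genes Prg3 and Ear6 and the glutathione transferase gene Mgst2 were also among the 15 largest falls (-1.84, -1.89 and -1.70 in log2 fold change). Ear6 has close relatives among the eosinophil ribonucleases, so that reads could be split between them.

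Genes of red cell precursors fell as well. All 12 erythroid genes were called lower after adjustment (median -1.60). Car1 (chromosome 3, 14766216 to 14808368), a carbonic anhydrase of red cells, was 36.6, 148, 52.1 and 51.6 CPM in the WT D0 mice and 18.2, 32.9, 12.2 and 7.54 in the WT D7 mice (log2 fold change -1.93, standard error 0.42, adjusted p = 0.00466 from limma). Hba-a1, an alpha globin gene, was 1233, 1585, 1998 and 1224 CPM in the WT D0 mice and 469.8, 865, 1353 and 359 in the WT D7 mice, with overlapping groups (log2 fold change -1.15, standard error 0.40, adjusted p = 0.0421 from limma). Alpha globin has near-identical gene copies, so that its reads are uncertain. Alas2, the first enzyme of heme synthesis in red cells, fell with an adjusted p of 0.0447 in the limma fit and was not called without WT D7 replicate 4. Tfrc, the transferrin receptor that brings iron into such cells, was 148, 319.5, 152 and 178 CPM in the WT D0 mice and 104, 99.5, 96.3 and 112 in the WT D7 mice, without overlap (log2 fold change -0.87, standard error 0.20, adjusted p = 0.0074 from limma). In bulk samples fewer cells of a type and less RNA per cell cannot be told apart.

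Genes of B cells fell. Of 13 genes of mature B cells and plasma cells 12 were called lower and 0 higher (median -1.35), and 12 were called with any 1 mouse left out. Jchain (chromosome 5, 88519809 to 88527891), the chain that joins secreted antibodies, was 28.2, 80.7, 64.4 and 13.3 CPM in the WT D0 mice and 6.62, 10.9, 2.86 and 9.09 in the WT D7 mice (log2 fold change -2.33, standard error 0.50, adjusted p = 0.0048 from limma). Cd79a, a chain of the B cell receptor, was 34.4, 106, 80.1 and 71.4 CPM in the WT D0 mice and 23.7, 32.5, 30.8 and 14.2 in the WT D7 mice (log2 fold change -1.45, standard error 0.31, adjusted p = 0.00488 from limma). Of 11 genes of pro-B and pre-B cells, stages confined to marrow in adults, 6 were called lower and 0 higher. Rag1, the recombinase of antigen receptor genes, was 20.8, 61.7, 44.9 and 37.8 CPM in the WT D0 mice and 19.2, 14.2, 20.1 and 7.42 in the WT D7 mice (log2 fold change -1.37, standard error 0.33, adjusted p = 0.0085 from limma), and Dntt, which adds bases at its joints, had a log2 fold change of -1.54.

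Of 10 T cell genes 7 were called lower and 1, Thy1, higher. Cd3d, a chain of the T cell receptor complex, was 1.43, 3.78, 3.93 and 2.56 CPM in the WT D0 mice and 1.04, 0.793, 1.45 and 0.416 in the WT D7 mice (log2 fold change -1.002, standard error 0.22, adjusted p = 0.00484 from limma). Of 8 NK cell genes 6 were called lower (2 leaving out WT D0 replicate 3 and 3 leaving out WT D7 replicate 4), and Nkg7, a granule protein of NK and T cells, fell from 22.7 ± 12.1 to 6.23 ± 1.89 CPM (SD, n = 4). Basophil and mast cell genes were called lower in 6 of 10, with Mcpt8 of basophils at -1.57 in log2 fold change, and dendritic cell genes in 4 of 10, with Siglech of plasmacytoid cells at -1.28. Of 10 platelet genes 4 were called lower (1 leaving out WT D0 replicate 2, WT D7 replicate 3 or WT D7 replicate 4 and 2 leaving out WT D0 replicate 3) and 2 higher. One of the latter, Itgb3 (0.74), is also a gene of osteoclasts and fibroblasts.

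All 12 genes shared by leukocytes were called lower (median -0.91), 10 of them after adjustment, and 10 to 12 were called with any 1 mouse left out. Ptprc, which encodes CD45, was 358, 644, 643 and 411 CPM in the WT D0 mice and 236, 237, 439.8 and 308 in the WT D7 mice, with overlapping groups (log2 fold change -0.75, standard error 0.25, adjusted p = 0.034 from limma). Arhgdib and Coro1a, regulators of the leukocyte cytoskeleton, had log2 fold changes of -1.27 and -1.25. Set against Ptprc within each library, S100a8 fell 1.70-fold without overlap (two-sided exact permutation test over 8 mice, p = 0.0286). Ngp and Mpo fell 1.73-fold and 2.13-fold against Ptprc with overlapping groups (same exact test, p = 0.0571 and 0.0857). Cd79a and Coro1a were 1.67-fold and 1.42-fold lower against Ptprc, also with overlapping groups (same exact test, p = 0.143 and 0.0571). C1qa, Mrc1 and Trem2 were 8.36-fold, 6.56-fold and 6.25-fold higher against it without overlap (same exact test, p = 0.0286 in each case). In all, 12 ratios to Ptprc were computed, and a p of 0.0286 is the smallest that the test allows and gives 0.049 after Benjamini-Hochberg adjustment over the 12.

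Macrophage genes went the other way. Of 10 macrophage identity genes 6 were called higher and 1 lower, with 4 to 6 called higher with any 1 mouse left out. Adgre1 (chromosome 17, 57358691 to 57483527), which encodes the F4/80 antigen, was 20.4, 30.7, 40.03 and 38.2 CPM in the WT D0 mice and 91.6, 92.4, 97.5 and 67.3 in the WT D7 mice (log2 fold change 1.43, standard error 0.18, adjusted p = 0.000473 from limma). Csf1r, the receptor of macrophage growth factor, was 69.9, 135, 163 and 112 CPM in the WT D0 mice and 204, 196, 204 and 159 in the WT D7 mice (log2 fold change 0.72, standard error 0.20, adjusted p = 0.0153 from limma). For Adgre1 the groups did not overlap, and for Csf1r the highest uninjured mouse lay just above the lowest injured one. Cd68 and Cd14 were not called, at 87.0 ± 10.6 CPM at D0 and 103 ± 18.6 CPM at D7 for Cd68 and 789 ± 233 CPM at D0 and 583 ± 310.3 CPM at D7 for Cd14 (SD, n = 4). Relative to Ptprc in the same library, Adgre1 was 0.0569, 0.0477, 0.0623 and 0.0930 at D0 and 0.388, 0.390, 0.222 and 0.218 at D7, a 4.64-fold rise, and Csf1r rose 2.79-fold and Cd68 1.98-fold, each without overlap (two-sided exact permutation test, p = 0.0286 in each case, 0.049 after Benjamini-Hochberg adjustment over the 12 ratios). For Cd14 the ratio was 1.16 times that at D0 (same exact test, p = 0.514). Ptprc itself fell, so a ratio to it also rises for a gene whose CPM stay level.

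Some genes of resident and repair macrophages rose as well, 4 of the 11 on the list, while 2 were called lower. The other 5, Cd163 among them, were not called, and the log2 fold change was negative in 4 of the 11. Mrc1 (chromosome 2, 14229392 to 14332057), the mannose receptor, was 10.9, 11.5, 19.2 and 16.6 CPM in the WT D0 mice and 72.2, 54.0, 58.7 and 40.5 in the WT D7 mice (log2 fold change 1.89, standard error 0.20, adjusted p = 0.000141 from limma). The lowest injured mouse was above 2 times the highest uninjured one. Folr2, a folate receptor of resident macrophages, and Stab1, a scavenger receptor, had log2 fold changes of 1.76 and 1.38. One of the 2 lower members, Chil3, a lectin that is also made by marrow granulocytes, was 402, 1501, 1208 and 674 CPM in the WT D0 mice and 186, 308, 261 and 203 in the WT D7 mice (log2 fold change -1.83, standard error 0.52, adjusted p = 0.0191 from limma). Of 15 genes of lipid-associated macrophages 7 were called higher and 1 lower, and 7 were called higher with any 1 mouse left out. Fcrls, a surface receptor of tissue macrophages, was 2.03, 1.099, 2.02 and 4.85 CPM in the WT D0 mice and 32.4, 25.5, 24.4 and 16.8 in the WT D7 mice (log2 fold change 2.95, standard error 0.29, adjusted p = 0.000141 from limma). WT D7 replicate 4 was the lowest injured mouse for Mrc1 and Fcrls, as for Adgre1 and Csf1r. Ms4a7, a membrane protein of macrophages, was 0.777, 1.34, 2.18 and 5.77 CPM in the WT D0 mice and 24.9, 25.5, 23.0 and 15.7 in the WT D7 mice (log2 fold change 2.896, standard error 0.31, adjusted p = 0.000158 from limma). Trem2, the lipid-sensing receptor that the study's other mice lack by genotype, rose from a mean of 4.56 to 16.8 CPM, without overlap (log2 fold change 1.67, standard error 0.25, adjusted p = 0.000736 from limma). Reads of the gene were also present in the Trem2-/- libraries, at 0.948 to 2.68 CPM at D0 and 3.42 to 4.84 CPM at D7, a log2 fold change of 0.94 (adjusted p = 0.00504 from limma). These values were below those of WT mice at the same time but for the lowest WT D0 mouse, and which part of the gene the allele lacks is not given in the sources used here. Apoe and Spp1, a lipid carrier and a secreted phosphoprotein also made by bone cells, had log2 fold changes of 0.96 and 1.21. One member fell, Tyrobp, the adaptor through which Trem2 signals and which many myeloid and NK cells share. It was 313, 410.4, 564 and 311 CPM in the WT D0 mice and 109, 178, 339 and 217 in the WT D7 mice (log2 fold change -0.99, standard error 0.27, adjusted p = 0.0155 from limma).

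**Figure D4:**
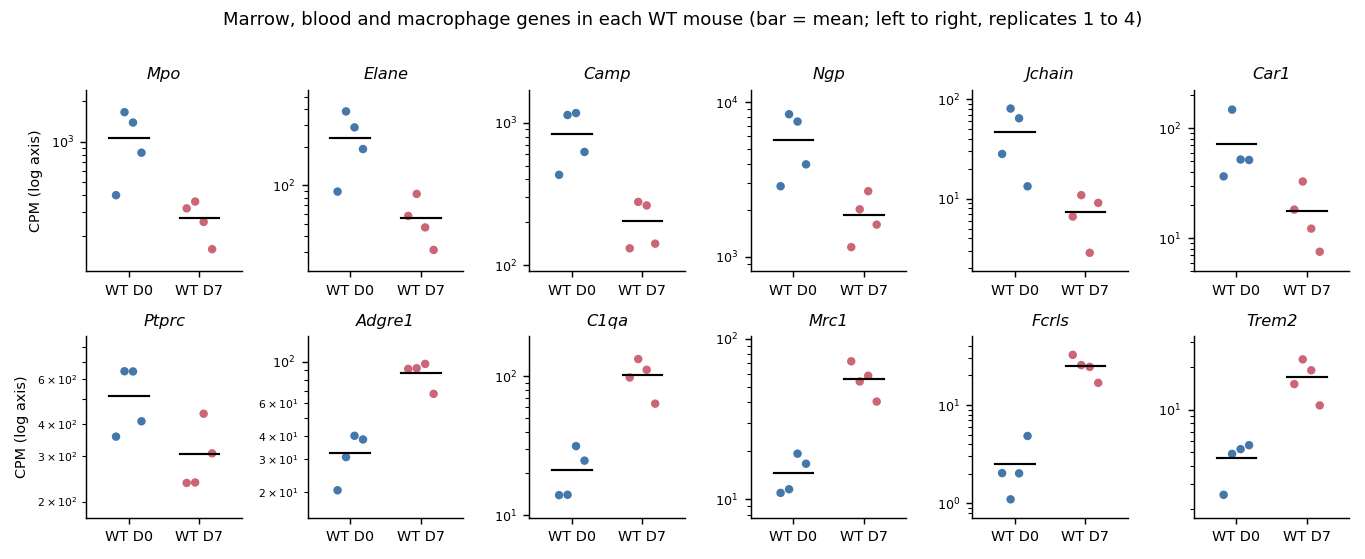
Values of 12 genes in CPM on a log axis in each WT mouse, D0 in blue and D7 in red, with the mean as a bar and replicates 1 to 4 from left to right. Granule, antibody and red cell genes were lower at D7 and macrophage genes higher, and of these 12 genes the groups overlapped only for Ptprc.

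Complement genes moved in both directions. The 3 chains of C1q and the receptor C3ar1 were called higher, and C3, Cfp and C5ar1 lower, of 10 tested. C1qa (chromosome 4, 136895917 to 136898803), made chiefly by macrophages, was 13.9, 14.004, 31.4 and 24.7 CPM in the WT D0 mice and 97.98, 133, 111 and 63.5 in the WT D7 mice (log2 fold change 2.25, standard error 0.38, adjusted p = 0.00127 from limma). C3ar1, the receptor of the C3a fragment, was 7.71, 7.22, 14.6 and 16.2 CPM in the WT D0 mice and 52.6, 49.4, 59.3 and 43.8 in the WT D7 mice (log2 fold change 2.14, standard error 0.26, adjusted p = 0.000356 from limma). C3, the central component, was 681, 1017, 1047 and 658 CPM in the WT D0 mice and 353, 379, 464 and 402 in the WT D7 mice (log2 fold change -1.06, standard error 0.26, adjusted p = 0.00872 from limma). Lysosomal genes were called higher in 11 of 18 and lower in 0, led by the proteinase genes Ctsk, Lgmn and Ctss, with log2 fold changes of 1.44, 1.37 and 1.11. At a fold change over 1.5 the lysosomal count was 6.

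Cytokines moved in both directions. Of 14 inflammatory cytokines and mediators 4 were called higher and 3 lower, against 19.3% and 18.2% of all genes tested. Il11 (chromosome 7, 4772373 to 4782859), a cytokine of the IL-6 family made by stromal cells, was 11.2, 1.82, 6.38 and 31.0 CPM in the WT D0 mice and 83.9, 52.9, 77.6 and 90.3 in the WT D7 mice (log2 fold change 3.00, standard error 0.49, adjusted p = 0.00123 from limma). Il10, an anti-inflammatory cytokine, was 3.41, 7.07, 6.75 and 13.6 CPM in the WT D0 mice and 14.1, 22.5, 21.5 and 16.9 in the WT D7 mice (log2 fold change 1.29, standard error 0.28, adjusted p = 0.0048 from limma). Both separated the groups. Il6, an inflammatory cytokine also made by joint fibroblasts, was 508, 152, 445 and 284 CPM in the WT D0 mice and 146, 112, 172 and 139 in the WT D7 mice (log2 fold change -1.16, standard error 0.32, adjusted p = 0.0165 from limma), and the lowest uninjured mouse, replicate 2, lay within the injured range. Osm, a cytokine of neutrophils and macrophages, had a log2 fold change of -1.11, and Il1b, interleukin 1 beta, one of -0.88 (adjusted p = 0.0483 from limma, not called without WT D0 replicate 3 or WT D7 replicate 1). Ptgs2, the inducible cyclooxygenase, was called higher with an adjusted p of 0.106 in the limma fit, and it was not called in 10 of 20 alternative settings.

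Neutrophil chemokines and their receptors were called lower in 4 of 10 and higher in 0. Cxcr2, the receptor, fell from 129 ± 39.0 to 69.7 ± 40.1 CPM (SD, n = 4), and Csf3, granulocyte colony-stimulating factor, had a log2 fold change of -1.27 with an adjusted p of 0.0535 in the limma fit, and was not called leaving out WT D0 replicate 3 or WT D7 replicate 1. Cxcl1, a ligand of Cxcr2, was 608, 122, 484 and 475 CPM in the WT D0 mice and 277, 425, 358 and 244 in the WT D7 mice and was not called. The chemokine genes Ccl3 and Ccl4 fell (-1.03 and -1.19). In the study neutrophils appeared to be a major source of several cytokines, Ccl3 among them. Type I interferon response genes were called lower in 5 of 11, 0 of them after adjustment with limma, and the count was 0 leaving out WT D0 replicate 3, 1 leaving out WT D0 replicate 1 or WT D7 replicate 2, 2 leaving out WT D7 replicate 1, 3 at a fold change over 1.5 and 8 leaving out WT D0 replicate 4. Isg15, a ubiquitin-like protein induced by interferon, was 59.2 ± 24.2 CPM at D0 and 30.9 ± 9.94 CPM at D7 (SD, n = 4). Of 9 genes of MHC class II presentation 3 were called lower. H2-Ob, a chain found mostly in B cells, fell from 19.5 ± 5.43 to 8.96 ± 2.34 CPM (SD, n = 4), and H2-Ab1, a chain of the presenting molecule itself, was 129 ± 30.4 CPM at D0 and 132 ± 10.7 CPM at D7 and was not called. Of 19 immediate-early and heat shock genes 3 were called lower, among them the transcription factor gene Junb (-0.50 in log2 fold change). The count was 0 leaving out WT D7 replicate 4 and at a fold change over 1.5, and 6 after quantile normalization. The 3 called lower were near the share of all genes tested, 18.2%.

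Genes of DNA replication fell. Of 16 members 14 were called lower and 0 higher (median -0.78), and 9 without WT D0 replicate 2, the mouse with the highest values. The promoters of 3 of them are shown for the words TTTGGCGC, TTTCGCGC and TTTCCCGC, forms of the site of E2F, the factor that turns on S phase genes. Each is again the 160 bases before the start on GRCm38.p6, 5′ to 3′ on the strand of the gene, with the word in capitals on either strand: Mcm5 at chr8:75109349-75109508 (plus strand), Mcm6 at chr1:128359706-128359865 (minus strand) and Cdc6 at chr11:98907991-98908150 (plus strand).
Mcm5: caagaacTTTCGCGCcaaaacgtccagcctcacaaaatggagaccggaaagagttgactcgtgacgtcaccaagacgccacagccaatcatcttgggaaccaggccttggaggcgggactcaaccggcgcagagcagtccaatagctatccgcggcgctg
Mcm6: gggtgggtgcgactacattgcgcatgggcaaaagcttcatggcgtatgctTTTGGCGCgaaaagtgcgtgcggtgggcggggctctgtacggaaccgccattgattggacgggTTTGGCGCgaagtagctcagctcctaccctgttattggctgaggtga
Cdc6: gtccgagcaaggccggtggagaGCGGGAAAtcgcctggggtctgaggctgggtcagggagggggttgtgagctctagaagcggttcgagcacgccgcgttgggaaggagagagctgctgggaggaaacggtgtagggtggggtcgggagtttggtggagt
Where such words overlapped, only the first was put in capitals, as in Mcm5 and at the first site of Mcm6. In the 250 bases before the start one of these words occurred in 4 of 12 replication genes with a RefSeq promoter (Mcm5, Mcm6, Mcm7 and Cdc6) and in 3.27% of the tested genes with one. Such a word also stood before Trem2, which rose. E2F was 1 of 11 factors searched after the values were seen, and a match does not show binding. Cdc6, which loads the replicative helicase, was 17.5, 60.5, 27.1 and 26.3 CPM in the WT D0 mice and 14.4, 16.0, 10.7 and 9.62 in the WT D7 mice (log2 fold change -1.19, standard error 0.30, adjusted p = 0.0117 from limma). Mcm5, a subunit of that helicase, was 48.3, 170.1, 114 and 77.3 CPM in the WT D0 mice and 48.2, 60.2, 46.8 and 27.5 in the WT D7 mice (log2 fold change -1.05, standard error 0.33, adjusted p = 0.0296 from limma). Mcm6 and Mcm7 had log2 fold changes of -0.76 and -1.04. WT D0 replicate 2 was the highest of the 8 mice for each of these genes. Mitosis genes were called lower in 1 of 20 and higher in 0, and without WT D0 replicate 1 lower in 11.

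Ribosomal protein genes fell by small steps. Of 18 on the list 11 were called lower and 0 higher (median -0.38), and 1 at a fold change over 1.5. Over all 70 tested genes of the family by symbol, 50 were called lower and 0 higher. The share of reads of the 71 listed genes, without the TMM correction, was 2.147, 2.86, 2.88 and 2.40% in the WT D0 mice and 1.46, 1.92, 1.80 and 1.36% in the WT D7 mice. Rps14 had the largest change on the list, from 315 ± 41.0 to 206 ± 50.4 CPM (SD, n = 4). Oxidative phosphorylation genes were called lower in 4 of 18 (0 at a fold change over 1.5, 2 leaving out WT D0 replicate 3 and 9 leaving out WT D7 replicate 2) and higher in 0, with Ndufa4, a subunit of the respiratory chain, at -0.50 in log2 fold change. The oxidative phosphorylation count was near the 18.2% of all genes tested that were called lower. Of 13 glycolysis and hypoxia genes 3 were called higher and 1 lower, against 19.3% and 18.2% of all genes. Car9, a carbonic anhydrase induced by low oxygen, was 1.255, 1.29, 1.17 and 2.07 CPM in the WT D0 mice and 10.6, 5.15, 7.997 and 5.64 in the WT D7 mice (log2 fold change 1.74, standard error 0.29, adjusted p = 0.00129 from limma), and Bnip3, a mitochondrial protein, rose from 34.2 ± 9.88 to 76.0 ± 4.98 CPM (SD, n = 4). Clock genes were called higher in 4 of 15 and lower in 3, against 19.3% and 18.2% of all genes. The activators Npas2 and Arntl rose (1.48 and 0.72 in log2 fold change), and Hlf, an output factor, and Per1, a repressor, fell (-0.97 and -0.39, the latter with an adjusted p of 0.0718 in the limma fit). Per1 was not called leaving out WT D0 replicate 2, WT D0 replicate 3 or WT D7 replicate 4, or at a fold change over 1.5. The hour at which the joints were taken was not stated in the sources used here.

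The response in WT mice was set beside that in Trem2-/- mice, in which D7 and D0 were compared in the same fit with their own 4 mice each. The responses differed, by the interaction term of genotype and injury, for 1026 genes at the rule of the study (7.79%), 661 of them (5.02%) with the WT change above the Trem2-/- change and 365 (2.77%) with it below. With limma 0 genes passed adjustment (smallest adjusted p = 0.579), 1075 (8.16%) had an unadjusted p under 0.05, and edgeR's quasi-likelihood test also gave 0 adjusted. Leaving out WT D0 replicate 2 gave 2236 such genes, leaving out WT D0 replicate 4 gave 609, and leaving out WT D7 replicate 3 gave 662. Of the 12 leukocyte genes 9 were among the 1026, each with a smaller fall in WT mice. For Ptprc the log2 change was -0.75 in WT and -1.84 in Trem2-/- mice. Of the 10 macrophage identity genes 6 were among them, with Adgre1 at 1.43 and 0.82 and Csf1r at 0.72 and -0.04.

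In the lists of wound matrix, small proteoglycans and tendon 4 members each were among the 1026, and 5 in the list of other collagens, each with the WT change below the Trem2-/- change. The tendon list shares Fmod and Kera with the small proteoglycans and Thbs4 with the wound matrix, so that a gene can count more than once. Tnn was 3.06 in WT and 5.44 in Trem2-/- mice, Postn 2.30 and 4.23, and Mmp14 2.18 and 3.78. Mmp13 was -0.79 in WT and 1.92 in Trem2-/- mice, and Tnmd 0.80 and 2.89. Of the 18 cartilage genes, the 6 fibrillar collagens, the 15 neutrophil granule genes and the 12 erythroid genes, 0 were among the 1026. Their medians were 3.10 and 4.13, 2.83 and 4.20, -1.52 and -2.26, and -1.60 and -1.92 in WT and Trem2-/- mice, in that order.

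**Figure D5:**
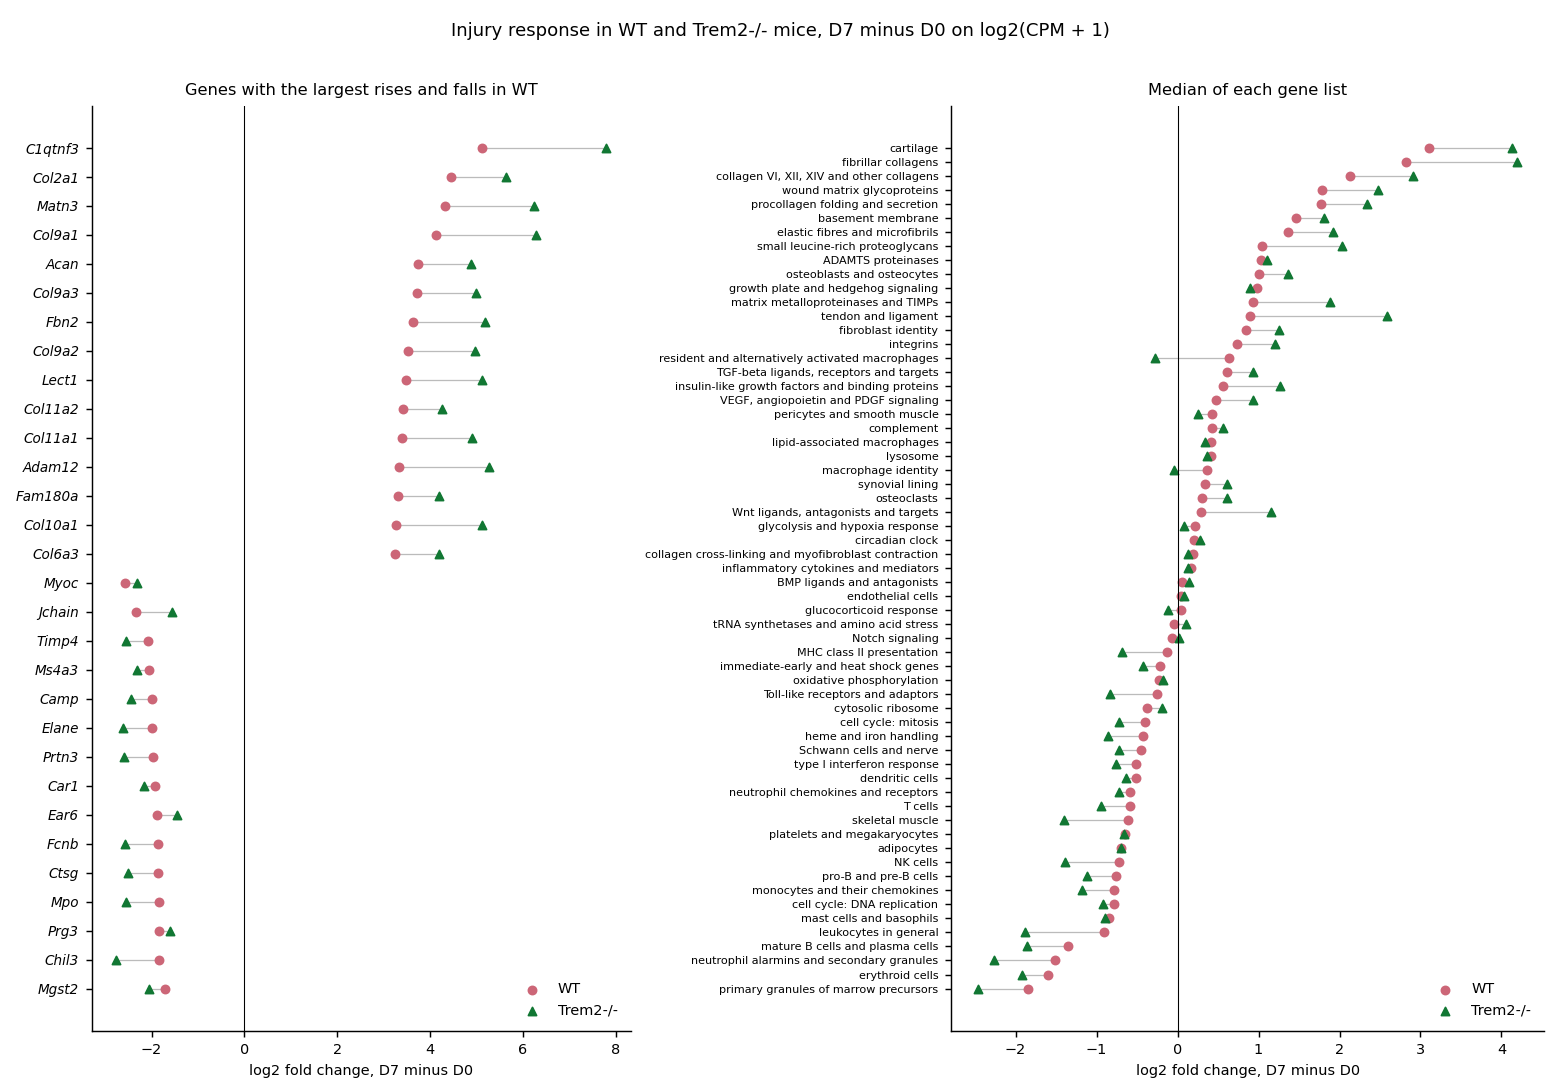
Log2 fold changes between D7 and D0 on log2(CPM + 1) in WT (red circles) and Trem2-/- mice (green triangles), for the 15 largest rises and 15 largest falls in WT mice (left) and for the median of each gene list (right). All 30 genes changed in the same direction in both genotypes, and the rises in Trem2-/- mice lie to the right of those in WT mice for each of the 15 genes. The 30 genes were chosen on the WT values.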

How the data were processed

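RNA of knee joint cells from uninjured and injured mice of both genotypes was sequenced, with 4 mice in each of 4 groups. The authors used STAR with mm10 for alignment and featureCounts for gene counts, and deposited 1 table of signal values, which are TMM-normalized CPM from edgeR. The deposited signal came out as whole reads for 100% of values (tolerance 0.01 read). Fcgr1, listed in 2 identical rows, was used once, which left 13733 genes. The 13173 genes that reached 1 CPM in 4 or more of 16 libraries were fitted with limma 3.58.1 in R 4.3.3 (trended eBayes, 4 groups in 1 fit) on log2(CPM + 1). Groups came from the sample titles. The labels do not say how mice were paired or batched, and where replicates share a preparation the p-values measure only the spread between these samples. In the WT groups no 2 libraries were duplicates of each other.

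A gene was called at an unadjusted p under 0.05 and a fold change over 5/4. Named genes were the 15 largest rises and 15 largest falls with an adjusted p under 0.05, a mean of at least 5 CPM and no overlap, list members with large or defining changes, Trem2 and Ptprc. Members and lists were chosen with earlier results of these data known. Single values were compared by two-sided exact permutation over 70 assignments. Simulated counts for this comparison gave back 99% of genes changed 2-fold and 100% of those changed 4-fold, of 200 changed among 13027, and called 4.63% of unchanged genes. After adjustment these were 84%, 100% and 0.0702%. The simulation gave every gene the same spread between mice and drew genes independently. It held no shift shared by many genes within a mouse, such as the WT D0 mice showed. Its recovery and error shares therefore do not carry over to these data. Alternatives were edgeR 4.0.16 and voom on the recovered reads, 2 other pseudocounts, other filters, scalings, spreads and fold limits, a replicate block and each replicate left out. The check of replicate numbers is given with the processing alternatives.

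Promoters (RefSeq, GRCm38.p6, 250 bases before the start) were searched on both strands for the sites of 11 factors: PU.1 (AGGAAGT), E2F (TTTGGCGC or TTTCGCGC or TTTCCCGC), the GATA factors (AGATAA), NF-Y (CCAAT), the TATA box (TATAAA), C/EBP (TTGCNNAA), CHR (TTTGAA), ISRE, the KLF factors (CCACACCC), the short ERSE word (CCACG) and E-box (CAGCTG). Of all 32851 windows 7.69% held the PU.1 word and 1.53% an E2F word. Gene positions are those of GENCODE on GRCm38.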

Additional observations from a re-analysis of the deposited data

Results flagged for a closer look

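With 4 mice a group, a mouse far from the other 3 by Dixon's criterion was found in 18 of 336 groups of named genes, 5.36% where chance gives about 5%. Of the 18, 10 were in WT D7 replicate 4. In that mouse Adgre1 (67.3 CPM), Csf1r (159), Apoe (315) and Ctss (159.5), genes of macrophages and lysosomes, were below the other injured mice, as were Dntt (2.14), Mcpt8 (8.08) and H2-Ob (5.52), genes of pro-B cells, basophils and B cells. Myoc (68.3 CPM), Mmp3 (153) and Bglap2 (67.3), genes of myocilin, a matrix proteinase and osteocalcin, were above the other injured mice in it. In WT D7, Col6a3 was low in replicate 3 (4303 CPM) and Scx high in replicate 2 (33.2 CPM). In WT D0, Spp1 (300.4 CPM) and Cxcl1 (122) were low in replicate 2, Prg4 (1039) low and Cd14 (1137) and Ccl4 (109) high in replicate 3, and Car9 (2.07) high in replicate 4.

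The mean log2(CPM + 1) over a list set a mouse apart in 7 of 122 list groups, 5.74%, all in WT D7. These were pro-B and pre-B genes (3.03) and glucocorticoid response genes (7.49) in replicate 4, and inflammatory cytokines (5.66), synovial lining (7.13) and tRNA synthetase genes (6.03) in replicate 1. The others were the list of collagen VI, XII and XIV and related collagens (9.31) in replicate 3 and VEGF, angiopoietin and PDGF genes (5.54) in replicate 2.

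For 24 named genes the change in WT mice differed from that in Trem2-/- mice by the interaction term of the limma fit at an unadjusted p under 0.05, while 0 genes of 13173 passed Benjamini-Hochberg adjustment. The values are the WT change minus the Trem2-/- change on the log2 scale. Leukocyte and macrophage genes had positive differences: Ptprc 1.096, Itgal 1.05, Siglech 1.02, Coro1a 0.99, C3 0.91, Tyrobp 0.85, H2-Ob 0.83, Csf1r 0.77, Cd68 0.65, Adgre1 0.62 and the clock gene Per1 0.51. Matrix, tendon and bone genes had negative differences: Mmp13 -2.71, Cthrc1 -2.56, Tnn -2.38, Tnmd -2.10, Adam12 -1.94, Postn -1.93, Itga11 -1.66, Dkk3 -1.64, Mmp14 -1.61, Angptl2 -1.51, Scx -1.39, Ctsk -1.34 and Acp5 -0.91.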

How the results depend on the processing

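Of 148 named genes that were called, 137 were called under each of the 20 alternatives that tested them, and 0 of the 148 changed direction. Some genes with low values were not tested under the filter of a mean of at least 5 CPM. The direction of the named genes that were not called was not checked. The other 11 lost the call under at least 1: Alas2, Il1b, Ptgs2, Csf3, Isg15, Fn1, Acta1, Sfrp5, Ndufa4, Per1 and Junb. Of 20 named genes that were not called, 10 were called under at least 1 alternative: Cd68, Cd14, Thbs1, Hspa5, Mmp13, Adamts5, Tnmd, Bglap2, Acp5 and Igf1r. Leaving out 1 replicate gave 4023 to 5764 called genes, 1972 to 4792 past adjustment (2256 when WT D0 replicate 2 was left out and 2498 when WT D7 replicate 1 was), 50.81% to 54.16% of called genes higher, 609 to 2236 interaction genes and 0 to 1 interaction genes past adjustment. A fit of the 8 WT libraries gave 1736 genes past adjustment, with fewer residual degrees of freedom and without the spread of the Trem2-/- mice. The median SD per gene was 0.238 in Trem2-/- D0 and 0.135 in Trem2-/- D7 mice. It was 0.274 in WT D0 and 0.208 in WT D7 mice. Which of these lowered the count was not tested. A fold change over 1.5 gave 2985 called genes and 635 interaction genes by its construction. The share of called genes that were higher was 51.45%, and 48.31% after quantile normalization, 48.98% with edgeR, 54.29% with median-of-ratios rescaling and 58.22% at a fold change over 1.5. The recovered reads gave 5098 called genes and 3832 past adjustment with voom, and 5025, 3644 and 1221 interaction genes with edgeR. With a replicate block the counts were 4891, 3561 and 1009. The numbers were not taken as pairing, since same-numbered WT mice had correlations of deviations of 0.0458, 0.203, 0.406 and 0.306 and the labels tie no mice together. The cause was not tested for the shifts between mice left out. With 4 mice a group, the exact permutation test of a single value could not go below p = 0.0286.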

Other observations

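Of 10 genes of monocytes and their chemokines 5 were called lower and 1, the chemokine gene Ccl8, higher. Plac8, a protein of monocytes and neutrophils, fell from 137 ± 62.4 to 39.8 ± 13.4 CPM (SD, n = 4). Csf1, the growth factor of macrophages, fell from 341 ± 101 to 193 ± 53.0 CPM (SD, n = 4), while its receptor Csf1r rose. Ccr2, the chemokine receptor that brings monocytes out of the marrow, had a log2 fold change of -0.75 and was not called.

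Of 12 genes of heme and iron handling 5 were called lower and 0 higher. Slc40a1, ferroportin, the iron exporter of macrophages and red cell precursors, fell from 77.2 ± 15.6 to 40.8 ± 18.3 CPM (SD, n = 4). Hp, haptoglobin, which binds free hemoglobin and is stored in neutrophil granules, fell from 409 ± 168 to 163 ± 58.4 CPM (SD, n = 4). Cd163, the receptor that takes up the complex of both, had a log2 fold change of 0.32 and was not called.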
